A study of Mus musculus with 6 samples.

Results

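The genes described here are 9 Leydig cell genes of the mouse testis, which serve androgen synthesis except for the peptide hormone Insl3: Star, Cyp11a1, Hsd3b1, Hsd3b6, Cyp17a1, Hsd17b3, Lhcgr, Insl3 and Srd5a1. They were taken as every probe set that the platform annotation gives to one of these symbols alone. That rule found 9 of the 45101 probe sets on the array, and they stand for 5 of the 9 genes: Star with 3 probe sets, Cyp11a1 with 3, and Hsd3b1, Cyp17a1 and Hsd17b3 with 1 each. Of the 9 probe sets 8 were bright enough to be tested, and all 5 genes had at least 1 of them. Hsd3b6 and Insl3 are annotated only to probe sets that they share with other genes, and Lhcgr and Srd5a1 were not analysed here.

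The study compared testes of inbred strains of mice at 8 weeks of age. The groups are MRL/MpJ (MRL/MpJ+/+ in the series title), AKR/N and C57BL/6, and the labels name no treatment and no introduced allele in any of them. Each strain has 2 mice with 1 array each, so 6 arrays in all. Total RNA of testes was hybridised, so every value is a mixture of germ cells, Sertoli cells and the cells between the tubules, and fewer cells of a type cannot be told apart from less RNA per cell. Probe sequences were not at hand, so sequence differences between the strains under the probes were not tested.

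Leydig cells lie between the seminiferous tubules and make testosterone from cholesterol when luteinizing hormone binds its receptor Lhcgr. Star carries cholesterol to the inner mitochondrial membrane, where Cyp11a1 cuts its side chain and releases pregnenolone. In the endoplasmic reticulum Hsd3b1 and Hsd3b6 form progesterone, Cyp17a1 turns it into androstenedione, and Hsd17b3 reduces that to testosterone. Srd5a1 makes dihydrotestosterone, and Insl3 is a peptide hormone that Leydig cells secrete and that guides the descent of the testis.

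The RefSeq promoter table for the mouse assembly GRCm38.p6 matched 3 of the 5 tested genes, Cyp11a1, Hsd3b1 and Hsd17b3. The 250 bases before a start of each are shown because these genes took different patterns across the strains. The assembly is that of C57BL/6J, so the letters of AKR/N and MRL/MpJ were not read. Capitals mark AGGTCA, an element bound by nuclear receptors such as Nr5a1, and GATA sites, which are AGATAA or the same letters with a leading T, a final G or both. Both strands were searched, and the capitals do not overlap. Of 32851 promoters of the same length, 14% held AGGTCA and 26.5% a GATA site.
Hsd17b3, chr13:64089202-64089451, minus strand: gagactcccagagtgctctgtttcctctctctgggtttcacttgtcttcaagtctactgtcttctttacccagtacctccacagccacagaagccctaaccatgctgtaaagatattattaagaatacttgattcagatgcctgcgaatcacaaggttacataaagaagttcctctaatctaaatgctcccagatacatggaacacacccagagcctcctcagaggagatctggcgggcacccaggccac
Hsd3b1, chr3:98859795-98860044, minus strand: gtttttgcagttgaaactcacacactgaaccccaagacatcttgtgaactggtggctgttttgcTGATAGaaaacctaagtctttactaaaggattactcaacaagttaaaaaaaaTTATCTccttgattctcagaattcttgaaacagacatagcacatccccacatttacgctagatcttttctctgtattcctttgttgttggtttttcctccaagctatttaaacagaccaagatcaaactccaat
Cyp11a1, chr9:58014702-58014951, plus strand: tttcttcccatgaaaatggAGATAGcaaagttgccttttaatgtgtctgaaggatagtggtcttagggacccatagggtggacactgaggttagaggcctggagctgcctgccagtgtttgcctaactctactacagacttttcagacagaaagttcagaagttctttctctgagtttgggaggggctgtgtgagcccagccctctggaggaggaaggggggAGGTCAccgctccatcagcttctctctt
The Hsd3b1 window held TGATAG 186 to 181 bases before the start and, read on the other strand, AGATAA 134 to 129 bases before it. The Cyp11a1 window belongs to the downstream of 2 starts that RefSeq lists. It held AGATAG 231 to 226 bases before the start and AGGTCA 28 to 23 bases before it. None of these letters were found in the Hsd17b3 window or in that of the upstream Cyp11a1 start. A match is a string of letters and was not tested as a binding site. Star and Cyp17a1 are named only.

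The deposited intensities are linear, and the authors had brought every array to the same trimmed mean of 125.001 units. Array medians were 28.0 to 30.7 units. Arrays of the same strain correlated at 0.979 to 0.985 over all probe sets and arrays of different strains at 0.967 to 0.979. Differences below are of log2(intensity + 16). Adding 16 makes the changes of dim genes look smaller. They come with 95% intervals and with p-values from limma adjusted over the 29692 tested probe sets, and a gene is called at an adjusted p under 0.05. A gene with several probe sets is represented by its brightest tested one. The number of arrays limits the precision. Markers of the labelled tissue were present: all 11 spermatid and 10 spermatocyte markers, 13 of 14 Sertoli cell markers and all 5 androgen synthesis genes were above the 40th percentile on all 6 arrays.

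Of the pathway's 5 measured genes, 4 gave more signal in MRL/MpJ than in C57BL/6 and 4 in AKR/N than in C57BL/6. Star, Cyp17a1 and Hsd17b3 stand in both counts, Hsd3b1 in MRL/MpJ only and Cyp11a1 in AKR/N only. In MRL/MpJ against C57BL/6, 4 of 5 genes were called higher and 0 lower, where 6.06% of all 14477 tested genes were called higher and 6.08% lower. In AKR/N against C57BL/6 the counts were again 4 and 0, against 6.33% and 5.45% of all genes. Both comparisons use the same C57BL/6 arrays. The median difference over the 5 genes was 0.79 in each, and that over all genes was 0.01 in each.
Between MRL/MpJ and AKR/N, 1 gene was called higher in MRL/MpJ, Hsd3b1, and 1 lower, Cyp11a1, against 3.65% and 5.05% of all genes.

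**Figure D1:**
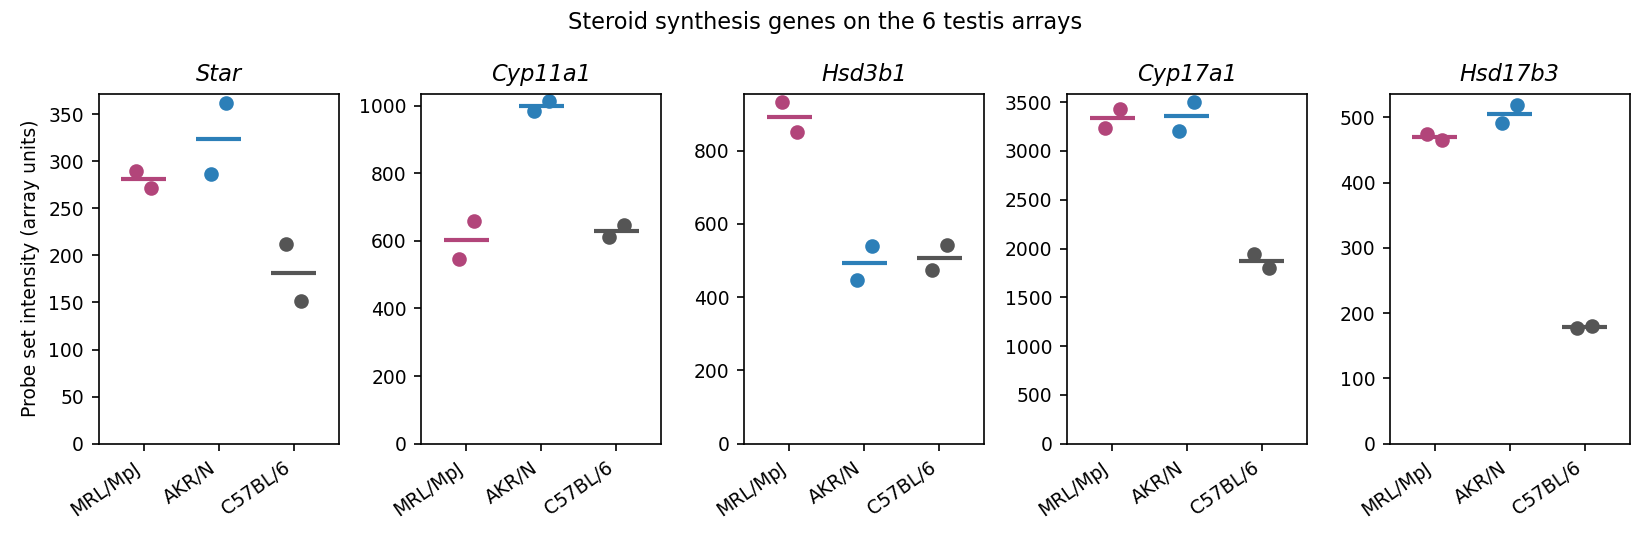
Intensity of Star, Cyp11a1, Hsd3b1, Cyp17a1 and Hsd17b3 on each array, 1 panel per gene with its own axis from 0, by strain. Points are single arrays and lines the means of 2. C57BL/6 is lowest for Star, Cyp17a1 and Hsd17b3, AKR/N alone is high for Cyp11a1 and MRL/MpJ alone for Hsd3b1.

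Star, the cholesterol carrier, read 289.9 and 271.6 units in MRL/MpJ, 286.7 and 361.6 in AKR/N, and 211.9 and 151.2 in C57BL/6 on its brightest probe set, 1418729_at. Every MRL/MpJ and AKR/N array lay above both C57BL/6 arrays, and the C57BL/6 arrays were themselves well apart. Star was higher in MRL/MpJ by 0.60 (1.52-fold, 95% interval 0.27 to 0.94, limma adjusted p = 0.0293). This call was lost when C57BL/6 replicate 2 (0.38, adjusted p = 0.168), MRL/MpJ replicate 1 (0.152) or MRL/MpJ replicate 2 (0.0947) was left out. It also missed the threshold when dim probe sets were not filtered out (adjusted p = 0.0676). In AKR/N it was higher by 0.79 (1.73-fold, 0.46 to 1.13, limma adjusted p = 0.00767), a call lost when AKR/N replicate 2 (adjusted p = 0.0837) or C57BL/6 replicate 2 (0.0576) was left out. MRL/MpJ and AKR/N overlapped (-0.19, -0.52 to 0.15, adjusted p = 0.558).

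The other probe sets of Star gave larger differences. Probe set 1418728_at read 237 and 249 units in MRL/MpJ, 244 and 316 in AKR/N, and 155 and 113 in C57BL/6, a difference from C57BL/6 of 0.80 in MRL/MpJ and 0.98 in AKR/N (limma adjusted p = 0.00762 and 0.00235). Probe set 1449201_at read 211 and 209 units in MRL/MpJ, 226 and 220 in AKR/N, and 98.1 and 43.8 in C57BL/6. Its differences were 1.45 and 1.53 (limma adjusted p = 0.00263 and 0.00189). All 3 were lowest on C57BL/6 replicate 2, and across the 6 arrays, which they share, their log2 values correlated at 0.95 to 0.99. With the mean of the 3 in place of the brightest, Star was higher by 0.95 in MRL/MpJ and 1.10 in AKR/N.

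Cyp11a1, the side-chain cleavage enzyme, read 546 and 658 units in MRL/MpJ, 985 and 1013 in AKR/N, and 610 and 648 in C57BL/6 on probe set 1448804_at. AKR/N stood apart from both other strains, and MRL/MpJ and C57BL/6 overlapped. Cyp11a1 was higher in AKR/N than in C57BL/6 by 0.65 (1.57-fold, 95% interval 0.45 to 0.86, limma adjusted p = 0.00135) and lower in MRL/MpJ than in AKR/N, by -0.72 (0.607-fold, -0.93 to -0.52, adjusted p = 0.00106). MRL/MpJ against C57BL/6 gave -0.07 (-0.27 to 0.14, adjusted p = 0.720). Both other probe sets of the symbol are dim. Probe set 1439947_at, which passed the filter with few units to spare, read 12.0 and 8.95 units in MRL/MpJ, 13.6 and 20.7 in AKR/N, and 28.2 and 16.4 in C57BL/6, and gave -0.20 in AKR/N against C57BL/6 (-0.83 to 0.43, adjusted p = 0.740). As the mean of both tested probe sets, Cyp11a1 in AKR/N against C57BL/6 fell short of a call (0.23, adjusted p = 0.219). Probe set 1457604_x_at, with 2.64 to 14.6 units, was too dim to be tested.

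Hsd3b1, which makes progesterone from pregnenolone, read 931 and 850 units in MRL/MpJ, 447 and 540 in AKR/N, and 474 and 541 in C57BL/6. Here MRL/MpJ stood apart, and AKR/N and C57BL/6 overlapped. Hsd3b1 was higher in MRL/MpJ than in C57BL/6 by 0.79 (1.73-fold, 95% interval 0.56 to 1.03, limma adjusted p = 0.000872) and than in AKR/N by 0.84 (1.79-fold, 0.60 to 1.07, adjusted p = 0.000927). AKR/N against C57BL/6 gave -0.04 (-0.27 to 0.19, adjusted p = 0.865).

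Cyp17a1, the enzyme at the branch towards androgens, was the brightest of these probe sets on every array, in units that do not compare levels between genes. It read 3237 and 3430 units in MRL/MpJ, 3203 and 3504 in AKR/N, and 1943 and 1800.2 in C57BL/6. The MRL/MpJ and AKR/N arrays shared a range and all lay above those of C57BL/6. The difference from C57BL/6 was 0.83 in MRL/MpJ (1.78-fold, 95% interval 0.67 to 0.98, limma adjusted p = 3.51e-05) and 0.84 in AKR/N (1.78-fold, 0.68 to 0.99, limma adjusted p = 3.31e-05). Between MRL/MpJ and AKR/N it was -0.01, with an interval of -0.16 to 0.15 (adjusted p = 0.973).

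Hsd17b3, the enzyme of the last step to testosterone, had the largest differences of the 5 genes among their brightest probe sets. It read 474 and 465 units in MRL/MpJ, 492 and 519.7 in AKR/N, and 178 and 181 in C57BL/6. The C57BL/6 arrays lay far below the others, and arrays of 1 strain differed little. Hsd17b3 was higher in MRL/MpJ by 1.32 (2.49-fold, 95% interval 1.13 to 1.50, limma adjusted p = 5.97e-06) and in AKR/N by 1.42 (2.67-fold, 1.23 to 1.61, limma adjusted p = 2.84e-06). AKR/N lay above MRL/MpJ on all arrays, but the difference of MRL/MpJ from AKR/N was -0.10 and was not called (-0.29 to 0.08, adjusted p = 0.572). Cyp17a1, Hsd17b3 and, for MRL/MpJ, Hsd3b1 were called against C57BL/6 under all 16 alternative settings. Without limma's variance trend the other calls fell short, at adjusted p of 0.156 and 0.0903 for Star in MRL/MpJ and AKR/N, 0.0574 and 0.0746 for Cyp11a1 in AKR/N against C57BL/6 and in MRL/MpJ against AKR/N, and 0.0679 for Hsd3b1 in MRL/MpJ against AKR/N.

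**Figure D2:**
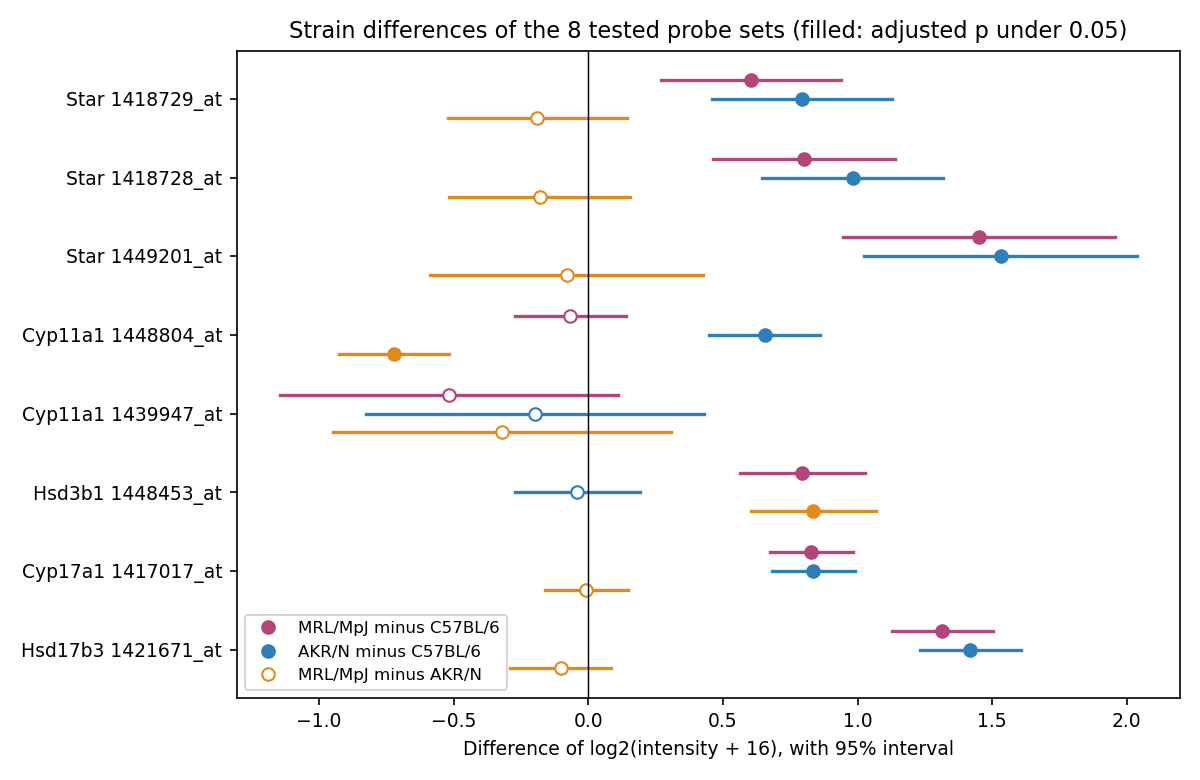
Difference of log2(intensity + 16) between strains for the 8 tested probe sets, by gene, with 95% intervals; filled points have an adjusted p under 0.05. Hsd17b3 and Star 1449201_at lie farthest to the right against C57BL/6, and between MRL/MpJ and AKR/N (orange) only Hsd3b1 and Cyp11a1 1448804_at are filled.

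The 5 genes fell into 3 patterns over the strains. Star, Cyp17a1 and Hsd17b3 were lowest in C57BL/6, and the test did not call a difference between MRL/MpJ and AKR/N. Across the 6 arrays Cyp17a1 correlated with Hsd17b3 at 0.990 and with Star at 0.919. Hsd3b1, high in MRL/MpJ alone, and Cyp11a1, high in AKR/N alone, correlated at -0.57. These correlations describe 3 strains rather than 6 independent points.

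Genes that deliver or store cholesterol were called higher in MRL/MpJ than in C57BL/6 for 3 of 11 tested (0 lower, median 0.19), where 6.06% of all genes were called higher, and in AKR/N for 1 of 11 (0 lower, median 0.13), where 6.33% were. In lists of this size a single call is near the share over all genes, so the counts of 1 given here and below are not a result about the list. Abca1, which exports cholesterol from cells, read 792 and 831 units in MRL/MpJ, 448 and 443 in AKR/N, and 445 and 487 in C57BL/6. Only the MRL/MpJ arrays stood apart, as with Hsd3b1 (0.78 against C57BL/6, limma adjusted p = 0.000156, and 0.84 against AKR/N, limma adjusted p = 0.000133). Stard4, another cholesterol carrier of the family of Star, was higher in MRL/MpJ by 0.70 (limma adjusted p = 0.00572) and differed by 0.42 in AKR/N (adjusted p = 0.0646). Dbi, a protein that binds fatty acyl-CoA and the mitochondrial protein Tspo, was higher by 0.40 in MRL/MpJ (limma adjusted p = 0.00693, but 0.0603 without MRL/MpJ replicate 2) and by 0.48 in AKR/N (limma adjusted p = 0.00227).

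Of 5 tested genes listed as electron donors of steroid enzymes, limma called 2 higher in MRL/MpJ and 0 in AKR/N, and 0 lower in either. The shares of all genes called higher were 6.06% and 6.33%, and lower 6.08% and 5.45%. At an unadjusted limma p under 0.05 there were 4 and 1 genes, counted in either direction. H6pd, which is among the 4, was lower in MRL/MpJ, by -0.56. Fdx1, the ferredoxin that serves Cyp11a1, read 1265 and 1284 units in MRL/MpJ, 1137 and 1210 in AKR/N, and 1013 and 1030 in C57BL/6. It was higher in MRL/MpJ by 0.31 (limma adjusted p = 0.0141), a call lost without any 1 of the 4 arrays compared (adjusted p = 0.0513 to 0.0832). Cyb5r3, a cytochrome b5 reductase, was higher in MRL/MpJ by 0.41 (limma adjusted p = 0.0223), a call lost when MRL/MpJ replicate 2 (0.158) or C57BL/6 replicate 1 (0.113) was left out.

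Other enzymes that convert steroids were called higher for 5 of 12 in MRL/MpJ and 4 of 12 in AKR/N, where 6.06% and 6.33% of all genes were. Of these enzymes 0 were called lower in either (medians 0.33 and 0.21), where 6.08% and 5.45% of all genes were. Hsd11b1 differed by -0.77 in MRL/MpJ and -0.76 in AKR/N and was not called (limma adjusted p = 0.127 and 0.134). The members named here act mostly elsewhere than on the route to testosterone. Sult1e1, which inactivates oestrogens by adding sulphate, read 305 and 270.5 units in MRL/MpJ, 459 and 373 in AKR/N, and 191 and 123 in C57BL/6. Both strains lay above C57BL/6, by 0.84 in MRL/MpJ (limma adjusted p = 0.0104) and by 1.34 in AKR/N (limma adjusted p = 0.000628). The first call was lost when MRL/MpJ replicate 1 (adjusted p = 0.0815) or C57BL/6 replicate 2 (0.0549) was left out. Hsd17b11, a dehydrogenase of lipid droplets, was higher by 0.77 in MRL/MpJ (limma adjusted p = 0.000454) and 0.54 in AKR/N (limma adjusted p = 0.00445, but 0.0555 without AKR/N replicate 2). Hsd17b4, an enzyme of peroxisomal fatty acid oxidation, and Hsd17b10, a mitochondrial dehydrogenase, were also called in both strains, by 0.47 and 0.57 in MRL/MpJ and by 0.51 and 0.69 in AKR/N (limma adjusted p = 0.00917 to 0.0245). Each of their calls was lost without at least 1 of the arrays compared, at adjusted p of 0.0518 to 0.174.

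Among 14 transcription factors of steroidogenic cells, 1 was called higher and 0 lower in MRL/MpJ, and 3 higher and 1 lower in AKR/N. Over all genes 6.06% were called higher in MRL/MpJ, and 6.33% higher and 5.45% lower in AKR/N. Sp1, a general activator, was higher by 0.77 in MRL/MpJ and 0.68 in AKR/N (limma adjusted p = 0.00208 and 0.00445), while 1 of its 2 other probe sets went the opposite way in AKR/N and their mean with it was not called there (0.26, adjusted p = 0.121). Cebpb (0.86), Nr2f2 (0.59) and Creb1 (-0.47) were called in AKR/N at limma adjusted p of 0.0229 to 0.0424. The call of Cebpb was lost without any 1 of the 4 arrays compared (adjusted p = 0.066 to 0.181), and those of Nr2f2 and Creb1 without any of the 6 (adjusted p = 0.056 to 0.246 for Nr2f2 and 0.0581 to 0.197 for Creb1). For Creb1, 2 of its 4 other probe sets went the opposite way, and the mean of its probe sets was 0.0777 (limma adjusted p = 0.784), so it has no settled direction in AKR/N. Nr5a1, the nuclear receptor required for steroidogenic cells, was looked up because its element was searched and not named by the rule. It read 185 and 163 units in MRL/MpJ, 178 and 154 in AKR/N, and 136 and 100.5 in C57BL/6, with differences of 0.51 and 0.45 that were not called (limma adjusted p = 0.0501 and 0.0833).

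Of 12 genes of signalling from the luteinizing hormone receptor, limma called 0 in MRL/MpJ against C57BL/6, with 5 at an unadjusted p under 0.05, and 1 in AKR/N, with 5. That 1 was Pde8a, a cyclic AMP phosphodiesterase of Leydig cells, with 1481 and 1494 units in MRL/MpJ, 1247 and 1334 in AKR/N, and 1639 and 1774 in C57BL/6. It was lower in AKR/N, by -0.40 (limma adjusted p = 0.0047, but 0.0575 without AKR/N replicate 1), and differed by -0.20 in MRL/MpJ (adjusted p = 0.11). Pde8a was among the 5 genes at an unadjusted limma p under 0.05 in both comparisons, and the others of each 5 were higher than in C57BL/6. Over all genes 6.06% were called higher and 6.08% lower in MRL/MpJ, and 6.33% higher and 5.45% lower in AKR/N. With 12 genes, counts of 0 and 1 are near these shares and are not a result about the list.

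Leydig cell markers outside steroid synthesis were called higher for 4 of 9 in MRL/MpJ (median 0.58) and for 1 of 9 in AKR/N (median 0.25), with 0 lower in either. Among all genes 6.06% and 6.33% were called higher. Vcam1, an adhesion molecule, read 534 and 487 units in MRL/MpJ, 319 and 288 in AKR/N, and 177 and 175 in C57BL/6. The strains did not overlap, and Vcam1 was called in each comparison (1.45 and 0.74 against C57BL/6 and 0.72 for MRL/MpJ against AKR/N, limma adjusted p = 6.78e-06, 0.000753 and 0.00136). Fabp3, a fatty acid binding protein, read 1867 and 1865 units in MRL/MpJ, 1115 and 1314 in AKR/N, and 1136 and 1042 in C57BL/6, and was higher in MRL/MpJ than in C57BL/6 (0.77, limma adjusted p = 0.000241) and than in AKR/N (0.62, limma adjusted p = 0.00173). Kit, the receptor of the Kit ligand, was higher in MRL/MpJ than in C57BL/6 by 0.58 (limma adjusted p = 0.0107), a call lost without MRL/MpJ replicate 1, MRL/MpJ replicate 2 or C57BL/6 replicate 2 (adjusted p = 0.0538 to 0.0771). Ptgds, a prostaglandin synthase of adult Leydig cells, read 2654 and 2693 units in MRL/MpJ, 1320 and 1227 in AKR/N, and 2434 and 1335 in C57BL/6. The C57BL/6 arrays disagreed for it, and it was called for MRL/MpJ against AKR/N alone (1.06, limma adjusted p = 0.00963), a call lost without any 1 of the 4 arrays compared (0.0512 to 0.0841).

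On the side of the cells that receive these hormones, 8 genes were tested, and the androgen receptor was not among them. Of the 8, 0 were called higher and 1 lower in MRL/MpJ, and 1 higher and 1 lower in AKR/N. Among all genes 6.06% were called higher and 6.08% lower in MRL/MpJ, and 6.33% higher and 5.45% lower in AKR/N. Rxfp2, the receptor of Insl3, which germ cells and the gubernaculum express, read 36.7 and 32.7 units in MRL/MpJ, 39.3 and 72.4 in AKR/N, and 139 and 121 in C57BL/6. Both strains lay below C57BL/6, by -1.52 in MRL/MpJ (limma adjusted p = 0.00118) and by -1.06 in AKR/N (limma adjusted p = 0.0099). The call in AKR/N was lost when AKR/N replicate 1 (0.069) or C57BL/6 replicate 1 (0.0647) was left out. Rhox5, a homeobox gene that androgen induces in Sertoli cells, read 215 and 215 units in MRL/MpJ, 321 and 349 in AKR/N, and 273 and 236 in C57BL/6. AKR/N was highest, with 0.38 against C57BL/6 (limma adjusted p = 0.043, lost without any 1 array but C57BL/6 replicate 1, at adjusted p of 0.0638 to 0.242), and MRL/MpJ lay -0.60 from AKR/N (limma adjusted p = 0.00607, but 0.0733 without AKR/N replicate 2).

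**Figure D3:**
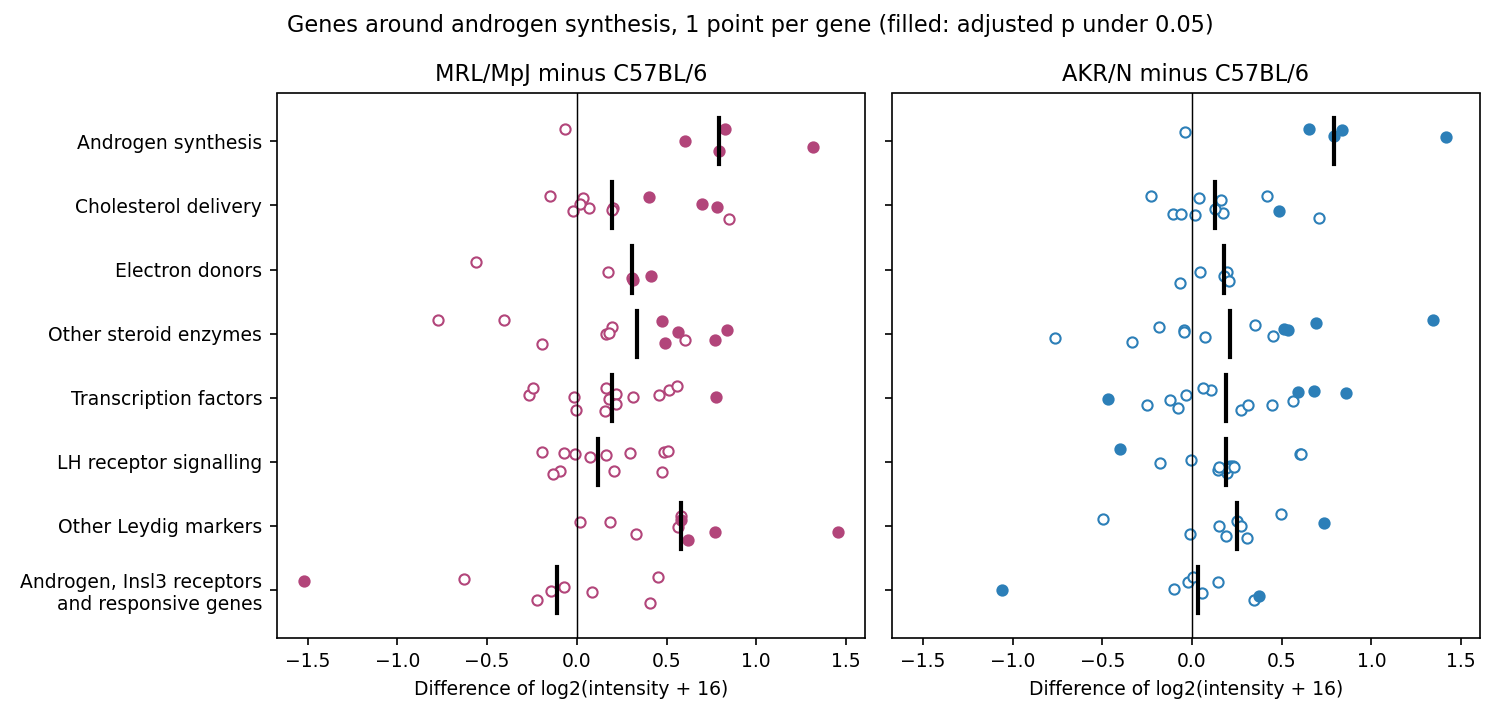
Difference of log2(intensity + 16) of each gene in 8 groups around androgen synthesis, for MRL/MpJ (left) and AKR/N (right) against C57BL/6; each point is a gene, filled at an adjusted p under 0.05, and black bars are medians over the genes shown. The androgen synthesis genes have a median of 0.79 in both panels, and the other groups' tested genes medians of -0.11 to 0.58 on the left and 0.03 to 0.25 on the right.

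Of 34 calls of named genes in these groups outside androgen synthesis, 9 held under every alternative setting, and 9 without the variance trend. They were Abca1 in MRL/MpJ against both other strains, Fabp3, Hsd17b11, Rxfp2, Stard4 and Vcam1 in MRL/MpJ against C57BL/6, and Sult1e1 and Vcam1 in AKR/N against C57BL/6.

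Summed over the 5 androgen synthesis genes, signal was 1.12 and 1.17 times the mean of the 6 arrays in MRL/MpJ, 1.11 and 1.22 in AKR/N, and 0.701 and 0.681 in C57BL/6. The sum of 10 other Leydig cell markers was 1.35 and 1.35 in MRL/MpJ, 0.784 and 0.809 in AKR/N, and 0.993 and 0.716 in C57BL/6. Cyp17a1 makes up most of the first sum, with 3237 of 5478 units on MRL/MpJ replicate 1 and 1943 of 3417 on C57BL/6 replicate 1. That sum does not show the separate patterns of Cyp11a1 and Hsd3b1. Ptgds makes up much of the second sum and differed between the C57BL/6 arrays. Without it, in a sum chosen after seeing the data, the other 9 markers came to 1.33 and 1.32 in MRL/MpJ, 0.873 and 0.961 in AKR/N, and 0.772 and 0.742 in C57BL/6, so that C57BL/6 was lowest in this sum as well. Fabp3 makes up most of the sum without Ptgds, with 1867 of 3040 units on MRL/MpJ replicate 1 and 1136 of 1764 on C57BL/6 replicate 1. For Fabp3 alone the AKR/N and C57BL/6 arrays overlapped (limma adjusted p = 0.317). Sertoli cell markers summed to 0.961 and 0.979 in MRL/MpJ, 1.09 and 1.11 in AKR/N, and 0.916 and 0.947 in C57BL/6. Of 13 tested Sertoli cell genes 1 was called higher in MRL/MpJ and 3 in AKR/N, and 0 lower. The shares of all genes called higher were 6.06% and 6.33%. Among the Sertoli cell genes Aard, a protein of Sertoli cells, was higher in AKR/N by 0.54 (limma adjusted p = 0.000908). Inha, the inhibin alpha chain, which Leydig cells also make, was higher in MRL/MpJ by 0.48 (limma adjusted p = 0.0098). The call of Inha was lost when MRL/MpJ replicate 1 (0.0798) or C57BL/6 replicate 1 (0.053) was left out.

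**Figure D4:**
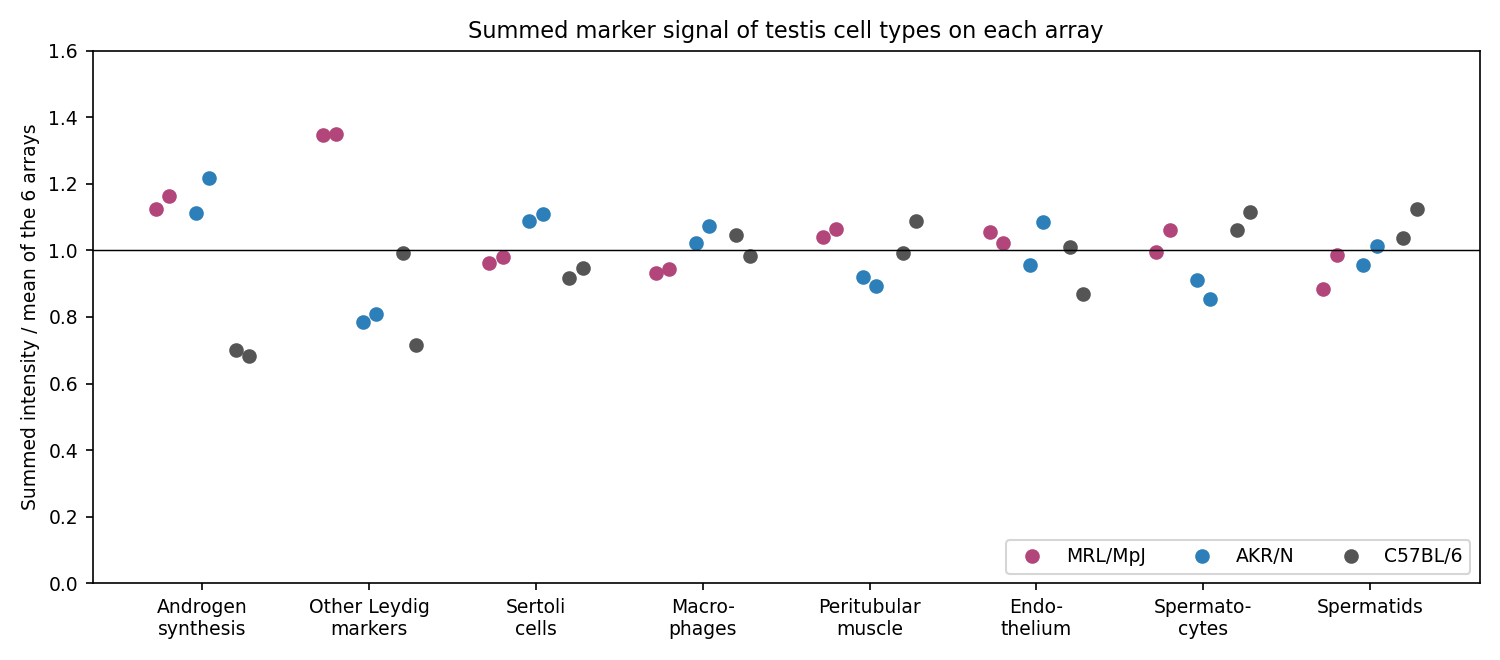
Summed intensity of the androgen synthesis genes and of 7 marker groups on each array, divided by the mean of the 6 arrays. Points are arrays, by strain, and Cyp17a1 makes up most of the androgen synthesis sum. For androgen synthesis both C57BL/6 arrays lie near 0.70 and the 4 others above 1.1, while for Sertoli cells, where C57BL/6 is also lowest, its upper array is at 0.947 and the next at 0.961.

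Macrophage markers summed to 907 and 919 units in MRL/MpJ, 996 and 1045 in AKR/N, and 1018 and 957 in C57BL/6. Peritubular muscle markers summed to 1385 and 1418 units in MRL/MpJ, 1225 and 1189 in AKR/N, and 1322 and 1449.7 in C57BL/6, and endothelial markers to 268 and 259, to 243 and 275, and to 256 and 220.4 units in the same strains. Limma called 0 of 6 peritubular and 0 of 7 endothelial genes in either comparison with C57BL/6, with 2 and 1 peritubular and 0 and 1 endothelial genes at an unadjusted p under 0.05. Of 8 macrophage genes it called Cd14, a receptor for bacterial lipopolysaccharide, which was lower in MRL/MpJ (-1.26, adjusted p = 0.011), a call lost when MRL/MpJ replicate 2 (0.0762) or C57BL/6 replicate 2 (0.0783) was left out. In AKR/N it called 0 of the 8, with 2 at an unadjusted p under 0.05. Among all genes 6.06% were called higher and 6.08% lower in MRL/MpJ, and 6.33% higher and 5.45% lower in AKR/N. In lists of 6 to 8 genes, counts of 0 and 1 are near these shares, so they are not a result about the lists.

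The adrenal cortex shares the first steps of the pathway, and fat lies beside the testis. Adrenal markers summed to 162 and 159 units in MRL/MpJ, 140 and 205 in AKR/N, and 87.7 and 116 in C57BL/6. Mrap, the accessory protein of the corticotropin receptor, carried that difference, with 96.7 and 100.3 units in MRL/MpJ, 94.9 and 137 in AKR/N, and 44.1 and 24.1 in C57BL/6 (1.22 and 1.41, limma adjusted p = 0.00448 and 0.00196). The receptor itself, Mc2r, lay below the 40th percentile on all 6 arrays, and the enzymes of the adrenal cortex were dim, at 5.32 to 28.9 units for Cyp11b1, 0.715 to 32.8 for Cyp11b2 and 8.66 to 51.0 for Cyp21a1. Of 4 tested fat markers 1 was called higher in MRL/MpJ and 2 in AKR/N, where 6.06% and 6.33% of all genes were. Fabp4, a fatty acid binding protein of fat cells, read 49.9 and 40.5 units in MRL/MpJ, 172 and 49.5 in AKR/N, and 12.4 and 2.09 in C57BL/6 (1.43 and 2.29, limma adjusted p = 0.0496 and 0.00498). The call in MRL/MpJ was lost without any 1 of the 4 arrays compared (0.07 to 0.243) and that in AKR/N without C57BL/6 replicate 2 (0.0568). Both C57BL/6 values of Fabp4 lay below the 40th percentile of their arrays, so the sizes of its differences are uncertain. Under the 16 alternatives they ranged over 0.619 to 2.84 in MRL/MpJ and 1.20 to 3.86 in AKR/N. The part of fat in the androgen synthesis genes' differences was not tested.

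Of 10 spermatocyte markers 2 were called higher and 3 lower in MRL/MpJ, and 1 higher and 5 lower in AKR/N. Of 11 spermatid markers 0 were called higher and 5 lower in MRL/MpJ, and 1 higher and 1 lower in AKR/N. Among all genes 6.06% were called higher and 6.08% lower in MRL/MpJ, and 6.33% higher and 5.45% lower in AKR/N. Spermatid markers summed to 0.885 and 0.986 times the mean of the 6 arrays in MRL/MpJ, 0.956 and 1.01 in AKR/N, and 1.04 and 1.12 in C57BL/6, so C57BL/6 was highest where it was lowest for androgen synthesis. Spermatocyte markers summed to 0.996 and 1.06 in MRL/MpJ, 0.910 and 0.855 in AKR/N, and 1.06 and 1.12 in C57BL/6. The part of the germ cells' share in the differences above was not tested.

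Some genes outside these lists followed the mean course of the 5 androgen synthesis genes over the arrays. Of genes whose strain means differed by at least 0.5, the 8 with the highest Pearson correlation to it, 0.992 to 0.998 over 6 arrays, were Ecpas, Klb, Slc7a5, Ptp4a2, Man2a2, Kcnk2, Sdc4 and Gm4665. Klb, the co-receptor of endocrine fibroblast growth factors, read 273 and 315 units in MRL/MpJ, 314 and 372 in AKR/N, and 37.8 and 29.5 in C57BL/6. Slc7a5, an amino acid transporter, read 828 and 837 units in MRL/MpJ, 832 and 895 in AKR/N, and 364 and 360.5 in C57BL/6. Sdc4, a heparan sulphate proteoglycan of the cell surface, read 289 and 360.1 units in MRL/MpJ, 345 and 389.8 in AKR/N, and 34.4 and 36.4 in C57BL/6, while its 1 other probe set went the opposite way. Genes low in C57BL/6 alone score high by construction, since the arrays form 3 pairs.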

How the data were processed

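Total RNA of testes was extracted with Trizol and biotin-labelled for a 3' GeneChip after one-cycle cDNA synthesis, per the labels' protocols. The authors deposited a linear intensity value for each of 45101 probe sets on 6 arrays, and from the values each array had been scaled to a mean of 125.001 after trimming 2% at each end. Software and version were not given in the sources used here, nor were detection calls. The scaling was kept. After removal of 64 controls, a probe set was tested if 2 or more of its 6 values exceeded the 40th percentile of the array concerned, which kept 29692. In the platform annotation 34945 have a single symbol, 932 have several and 9160 have none, and only single symbols named a gene.

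With limma 3.58.1 (R 4.3.3), strain means of log2(intensity + 16) were estimated from the 6 arrays together and compared pairwise by moderated statistics with a variance trend (3 residual and 7.58 prior degrees of freedom) and Benjamini-Hochberg adjustment over all tested probe sets. Strains come from the sample titles, and the study's design counts 2 mice per strain. Replicate numbers were not used to pair the arrays. Same-numbered deviations correlated at 0.043 to 0.049, which cannot show that the arrays were unpaired. With the replicate number as a block, limma called 3510 probe sets in MRL/MpJ against C57BL/6, 3492 in AKR/N against C57BL/6 and 2549 in MRL/MpJ against AKR/N. Without the block it called 2975, 2960 and 2052. The 5 genes and the 16 other gene lists, with 135 of 163 entries tested, were chosen with earlier results of these data known. They cover 7 lists around androgen synthesis and 9 of other cells (Sertoli, macrophage, peritubular, endothelial, adrenal, fat, epididymis, spermatocyte and spermatid). From each list up to 4 called genes with the smallest adjusted p were eligible for naming, or the 2 brightest where none was called. The epididymis list had 1 tested gene, Rnase10, lower in MRL/MpJ and AKR/N than in C57BL/6 (-1.58 and -1.87). It read 15.6 and 12.2 units in MRL/MpJ, 12.5 and 4.84 in AKR/N, and 68.8 and 78.0 in C57BL/6. Only the C57BL/6 arrays exceeded the filter's percentile, so the sizes of these differences are uncertain. Under the 16 alternatives they ranged over -2.33 to -0.818 and -3.07 to -0.920. Epididymis markers summed to 47.0 and 19.5 units in MRL/MpJ, 134 and 30.6 in AKR/N, and 77.9 and 110 in C57BL/6. The calculations were tested on simulated data. Alternatives were other normalizations, filters and pseudocounts, no variance trend, the mean of a gene's probe sets, only the arrays compared, the replicate number as a block, and each array left out.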

Additional observations from a re-analysis of the deposited data

How the results depend on the processing

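Each difference of the 5 genes was recomputed under 16 alternatives, and of 240 values 221 kept their direction and their side of the threshold, 12 kept the direction and lost the call, and 7 changed sign. Without the variance trend limma called 2 genes in AKR/N against C57BL/6, Cyp17a1 and Hsd17b3, and 0 between MRL/MpJ and AKR/N, where 4 and 2 genes had an unadjusted p under 0.05, and it called 1.42% of all probe sets in the last comparison. With each array left out in turn the counts were 3 to 4 in MRL/MpJ and 3 to 4 in AKR/N against C57BL/6, and 2 to 2 between MRL/MpJ and AKR/N. With the replicate number as a block they were 4, 4 and 2 and changed no call of the 5 genes. The 7 sign changes were of differences that were not called. With each array left out in turn, Cyp11a1 in MRL/MpJ against C57BL/6 ranged over -0.198 to 0.0651, positive where MRL/MpJ replicate 1 was left out. Cyp17a1 between MRL/MpJ and AKR/N ranged over -0.0722 to 0.0568, positive where MRL/MpJ replicate 1 or AKR/N replicate 2 was left out, and was 0.0423 after quantile normalization. Hsd3b1 in AKR/N against C57BL/6 ranged over -0.174 to 0.0905, positive where AKR/N replicate 1 or C57BL/6 replicate 2 was left out, and was 0.00083 after median centring. Creb1 in AKR/N against C57BL/6, called as its brightest probe set, was 0.0777 as the mean of its probe sets. Of 34 calls named in the lists around androgen synthesis, 9 held under every alternative. These alternatives for list genes were chosen after seeing the data. With 2 arrays per strain, the arrays' number sets the precision, and the spread of each gene borrows from all others. Without C57BL/6 replicate 2, Star had an adjusted p over 0.05 in both comparisons.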

Other observations

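Probe sets annotated to several genes at once belong to no gene's comparison, and 3 of them carry a symbol of the 9 genes described here. Probe set 1460232_s_at is annotated to Hsd3b6, Hsd3b3 and Hsd3b2, of which Hsd3b6 is the enzyme form of adult Leydig cells. It read 637 and 719.6 units in MRL/MpJ, 571 and 646 in AKR/N, and 274 and 252 in C57BL/6. Both strains lay above C57BL/6, by 1.31 in MRL/MpJ (limma adjusted p = 1.41e-05) and 1.16 in AKR/N (limma adjusted p = 3.28e-05), unlike the probe set of Hsd3b1 alone, which was not called in AKR/N; that contrast between the probe sets was not tested. MRL/MpJ and AKR/N overlapped for it (0.15, 95% interval -0.06 to 0.37, adjusted p = 0.434).

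Insl3 shares both of its probe sets with Jak3, a kinase of cytokine receptors. The bright one, 1423021_s_at, read 3558 and 4075 units in MRL/MpJ, 2911 and 2983 in AKR/N, and 3034 and 2722 in C57BL/6. It was higher in MRL/MpJ than in C57BL/6 by 0.40 (limma adjusted p = 0.00809) and than in AKR/N by 0.37 (limma adjusted p = 0.0181), and AKR/N overlapped C57BL/6. The dim one, 1427092_at, read 30.9 and 27.8 units in MRL/MpJ, 30.2 and 22.4 in AKR/N, and 13.4 and 9.03 in C57BL/6, and was not called in any comparison (0.74 in MRL/MpJ and 0.63 in AKR/N against C57BL/6, limma adjusted p = 0.0841 and 0.138).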
